A study of Homo sapiens with 6 samples.

Results

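The 52 genes described here make up the entry, glycosylation, folding and disposal machinery of the endoplasmic reticulum (ER). They were taken by symbol from a table of 61859 genes, and all 52 were found and passed the expression filter, a mean normalized count of at least 10. By role they fall into 6 genes of the signal recognition particle (SRP) and its receptor, 9 of the translocon, 5 of the signal peptidase, 7 of the oligosaccharyltransferase, 12 of folding, 11 of degradation and 2 stress sensors. Transcripts were counted by RNA sequencing in OSC19SSZR, a human line from an oral squamous cell carcinoma with resistance to sulfasalazine, which blocks cystine uptake. Cells of 3 libraries received control siRNA and cells of 3 received siRNA against FOXA1, a forkhead factor known in epithelia for opening closed chromatin. RNA was taken 48 h after transfection, and every library therefore comes from the resistant line. The labels name neither the siRNA sequences nor separate cultures, so a p-value here covers the spread between libraries alone, which may be technical.

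Secreted and membrane proteins are recognised by SRP while they are still being made, docked at the SRP receptor and threaded through the SEC61 channel. The signal peptidase removes their signal sequence, the oligosaccharyltransferase attaches preassembled glycans to asparagines, and chaperones with the protein disulfide isomerases fold the chain. Chains that fail are passed back to the cytosol through the SEL1L and SYVN1 (HRD1) complex for proteasomal degradation, and the sensors ATF6, IRE1 (gene ERN1) and PERK (gene EIF2AK3) raise the capacity of the organelle when unfolded protein builds up.

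FOXA1 itself read 1477, 1378 and 1459 normalized counts in control siRNA replicates 1, 2 and 3 and 247, 192 and 189 in the FOXA1 siRNA replicates. It fell by 2.79 ± 0.09 on the log2 scale (SE throughout; limma, adjusted p = 3.32e-18), and the exact permutation test gave p = 0.1, the smallest that 3 against 3 allows. Recovered reads ranged from 16510125 to 25732569 per library. The 10 squamous epithelial markers were all detected, though KRT14 had a mean of only 38.8 normalized counts. KRT6A read 50.4, 38.3 and 802 in control replicates 1, 2 and 3. The markers did not move together, as 5 rose (50%), 2 fell (20%) and 3 did not pass (limma, adjusted p under 0.05). Of all tested genes 26.8% rose and 25% fell. Of those with a mean of at least 1000, as 8 of the 10 markers have, 47.7% rose and 22.3% fell. From control to FOXA1 siRNA, mean KRT17 went from 5826 to 11743 and SFN from 3877 to 8538. KRT5 fell from 31639 to 27947 and TP63 from 4917 to 3734. The summed normalized count of the 10 ran from 55893 to 58425 in control and from 62552 to 65342 in FOXA1 siRNA libraries. The 6 fibroblast markers summed to 148 to 165 and 92.5 to 137 normalized counts, nearly all of it COL1A1, with DCN and LUM at 0. The 3 endothelial markers summed to 542 to 571 and 279 to 302, nearly all of it CDH5. The 5 leukocyte markers stayed at or under 6.05 and the 4 plasma cell markers at or under 4.76, with MS4A1 and JCHAIN at 0. In bulk RNA, fewer cells of a type and less RNA per cell cannot be told apart.

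Several of these genes have promoters that match sequences known from the unfolded protein response. The stretches below hold every match, within the window from 250 bases before to 50 bases after the RefSeq gene start (GRCh38.p14), to the ER stress element (CCAAT, 9 bases, CCACG) or to ER stress element II (ATTGG, 1 base, CCACG). They are shown because these are the members whose promoters match a known stress element and whose RNA can be set beside it. Each is written 5′ to 3′ along the gene's strand, with the match in capitals, as found on either strand.
CANX (chr5:179698758-179698816, plus strand): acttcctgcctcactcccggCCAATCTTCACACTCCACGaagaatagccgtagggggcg
CALR (chr19:12938364-12938422, plus strand): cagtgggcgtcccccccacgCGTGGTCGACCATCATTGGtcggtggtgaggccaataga
CRELD2 (chr22:49918534-49918592, plus strand): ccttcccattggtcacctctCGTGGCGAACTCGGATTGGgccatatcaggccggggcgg
ERO1B (chr1:236282163-236282208, minus strand): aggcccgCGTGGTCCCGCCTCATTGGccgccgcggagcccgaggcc
HYOU1 (chr11:119057360-119057410, minus strand): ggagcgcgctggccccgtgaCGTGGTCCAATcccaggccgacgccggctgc
HYOU1 (chr11:119057254-119057304, minus strand): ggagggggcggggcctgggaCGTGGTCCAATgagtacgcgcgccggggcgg
HERPUD1 (chr16:56932005-56932055, plus strand): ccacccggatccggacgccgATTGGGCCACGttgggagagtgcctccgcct
SDF2L1 (chr22:21642094-21642144, plus strand): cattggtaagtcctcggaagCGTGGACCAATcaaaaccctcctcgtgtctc

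Of the 52 members, 46 had a promoter window of 300 bases, and SPCS1, RPN1, STT3B, PDIA3, DERL1 and DERL3 had none. The ER stress element occurred in 4 of the 46 (8.70%), against 22 of all 27305 windows (0.0806%) and 14 of the 11346 windows of tested genes (0.123%). Element II occurred in 3 of 46 (6.52%), against 0.0549% of all windows and 0.0970% of those of tested genes. The unfolded protein response element, searched as TGACGTGG on both strands, occurred in HYOU1, SEC62, SRP19 and VCP (8.70%), against 0.795% of all windows and 0.890% of those of tested genes. Any of the 3 was present in 10 members (21.7%), against 0.927% of all windows and 1.10% of those of tested genes. In HYOU1 the TGACGTGG match, at -188 to -181 from the start, shares bases with the first element II match at -185 to -175, and the second lies at -79 to -69. CCAAT alone is common, at 63.0% of member windows and 35.7% of all windows.

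Members with a promoter match lay on both sides of 0 after FOXA1 siRNA. Among the 10 with a match, 6 rose (HYOU1, CANX, SRP19, SDF2L1, CRELD2 and CALR) and 2 fell (VCP and ERO1B), 60% and 20%. SEC62 and HERPUD1 did not pass the test, and the median log2 fold change of the 10 was 0.15. Several of these calls were not stable. The call was lost in 14 of the 19 alternative analyses for CRELD2, 11 for SDF2L1 and 5 for SRP19. CALR changed sign with quantile normalization, and the authors' deposited test did not call CRELD2, SDF2L1 or ERO1B. Among the 36 without a match, 16 rose (44.4%), 8 fell (22.2%) and 12 did not pass, with a median of 0.14. Of all tested genes 26.8% rose and 25% fell, and of those with a mean of at least 1000, 47.7% rose and 22.3% fell. The difference between members with and without a match was not tested. The forkhead words TGTTTAC or TGTTTGC, chosen after the results were seen, occurred on either strand in the windows of DAD1 and SRP54 alone (4.35% of members), against 7.15% of all windows and 5.04% of those of tested genes. A match is a description of the letters, not of binding.

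**Figure D1:**
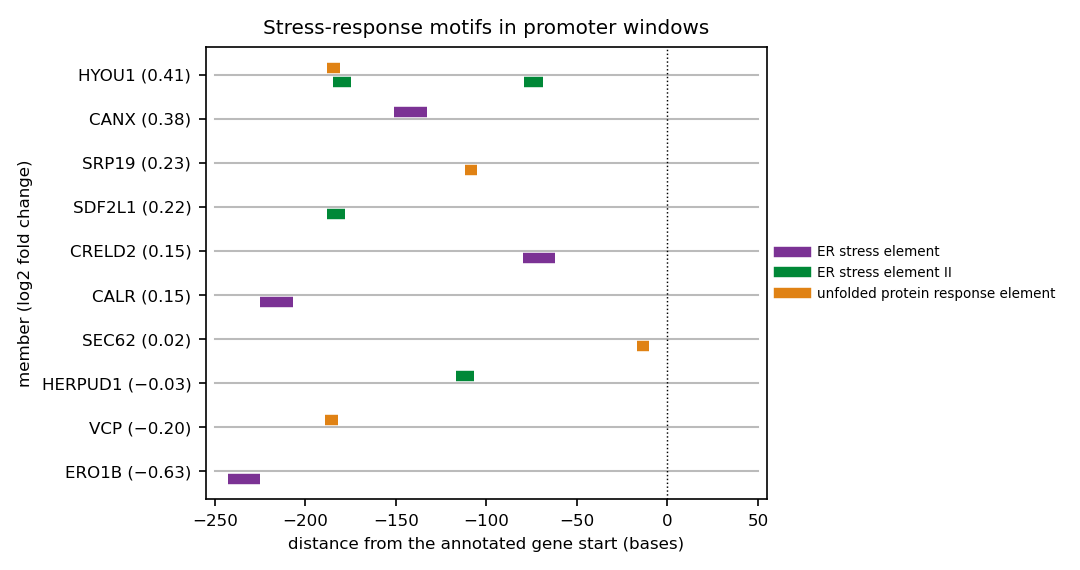
Positions of the 3 stress-response motifs in the promoter windows of the 10 members that hold one, in bases from the annotated gene start, with matches on the gene's strand above the line and on the opposite strand below it. The log2 fold change after each name runs from 0.41 for HYOU1 to -0.63 for ERO1B, so members with a motif lie on both sides of 0.

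With FOXA1 siRNA, 24 members rose and 12 fell (limma on log2(normalized count + 1), adjusted p under 0.05 over 18460 genes), and 16 did not pass. Most changes were small. SSR3, a subunit of the translocon-associated protein complex, was the only riser of at least 1.5-fold, and SEL1L, DERL3 and ERO1B were the only fallers of that size. Of all tested genes 26.8% rose and 25% fell, and 7.16% rose and 12% fell by at least 1.5-fold. Many of these genes are abundant, and 39 have a mean of at least 1000 normalized counts. Among these 39, 20 rose (51.3%) and 8 fell (20.5%), against 47.7% and 22.3% of all 4163 genes at that level, so the shares lay near those of genes of like abundance. In 39 of the 52 the groups did not overlap, against 57.6% of all tested genes. The median log2 fold change was 0.14 over the members, 0.0039 over all tested genes and 0.12 over all genes with a mean of at least 1000. The split depends on scaling. It was 13 higher and 13 lower with equal library totals, where the genome-wide split moved from 4954 higher and 4617 lower to 3594 and 5967, and 15 higher and 13 lower with quantile normalization. With limma's trend and robust options off, 15 members were higher. The median of the members was 0.039 with equal library totals and 0.022 with quantile normalization, so rises given below are smaller, and falls larger, in most cases under these scalings.

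**Figure D2:**
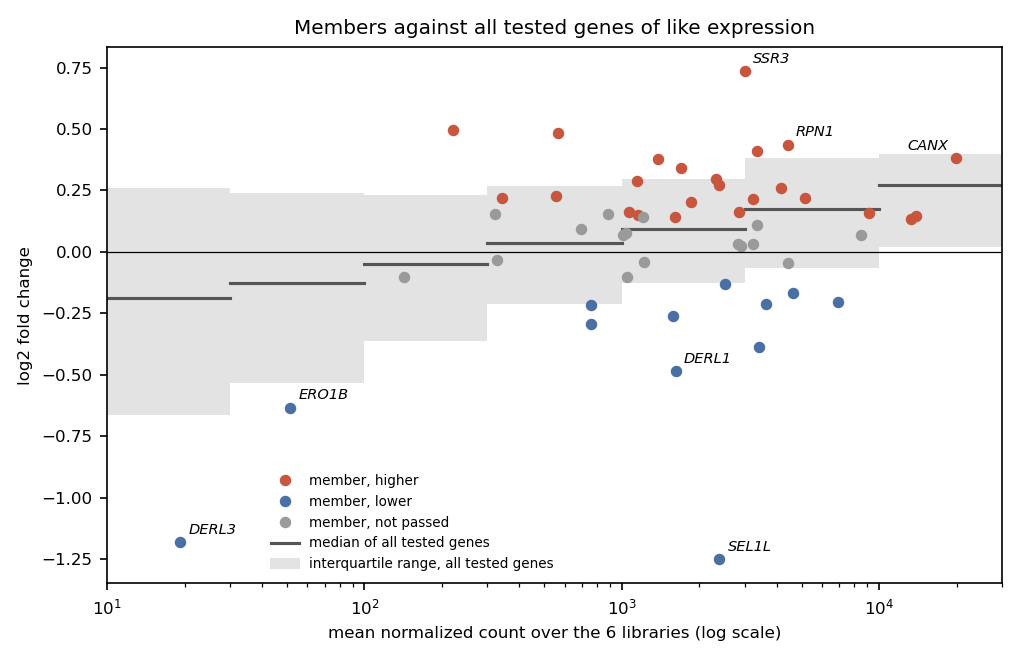
Log2 fold change of each member (points) against its mean normalized count over the 6 libraries (log axis), with the median and interquartile range of all tested genes in bands of expression. The band medians climb from -0.19 at a mean of 10 to 30 to 0.27 at 10000 and above. SSR3 (0.73) lies farthest above the range of its level and SEL1L (-1.25) farthest below.

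Counts by role were as follows. Of the 27 genes of targeting, translocation, signal cleavage and glycan transfer, 15 rose (55.6%) and 3 fell (11.1%), with a median log2 fold change of 0.16. As 24 of these 27 have a mean of at least 1000, the share that rose lay near the 47.7% of all genes at that level. The share that fell was below the 22.3% of all genes at that level, a difference that was not tested. Of the 25 genes of folding, degradation and stress sensing, 9 rose and 9 fell (36% each), with a median of 0.067, and 15 of these 25 are at that level. Falls outnumbered rises among the 11 degradation genes, 5 against 1, and among the 2 stress sensors, 1 against 0, and folding had 8 rises and 3 falls. Over all tested genes 26.8% rose and 25% fell. The difference between role groups was not tested. The degradation counts stayed at 1 higher and 4 or 5 lower in each of the 19 alternative analyses, whereas the folding rises dropped from 8 to 3 with equal library totals or with limma's trend and robust options off, and to 4 with quantile normalization.

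**Figure D3:**
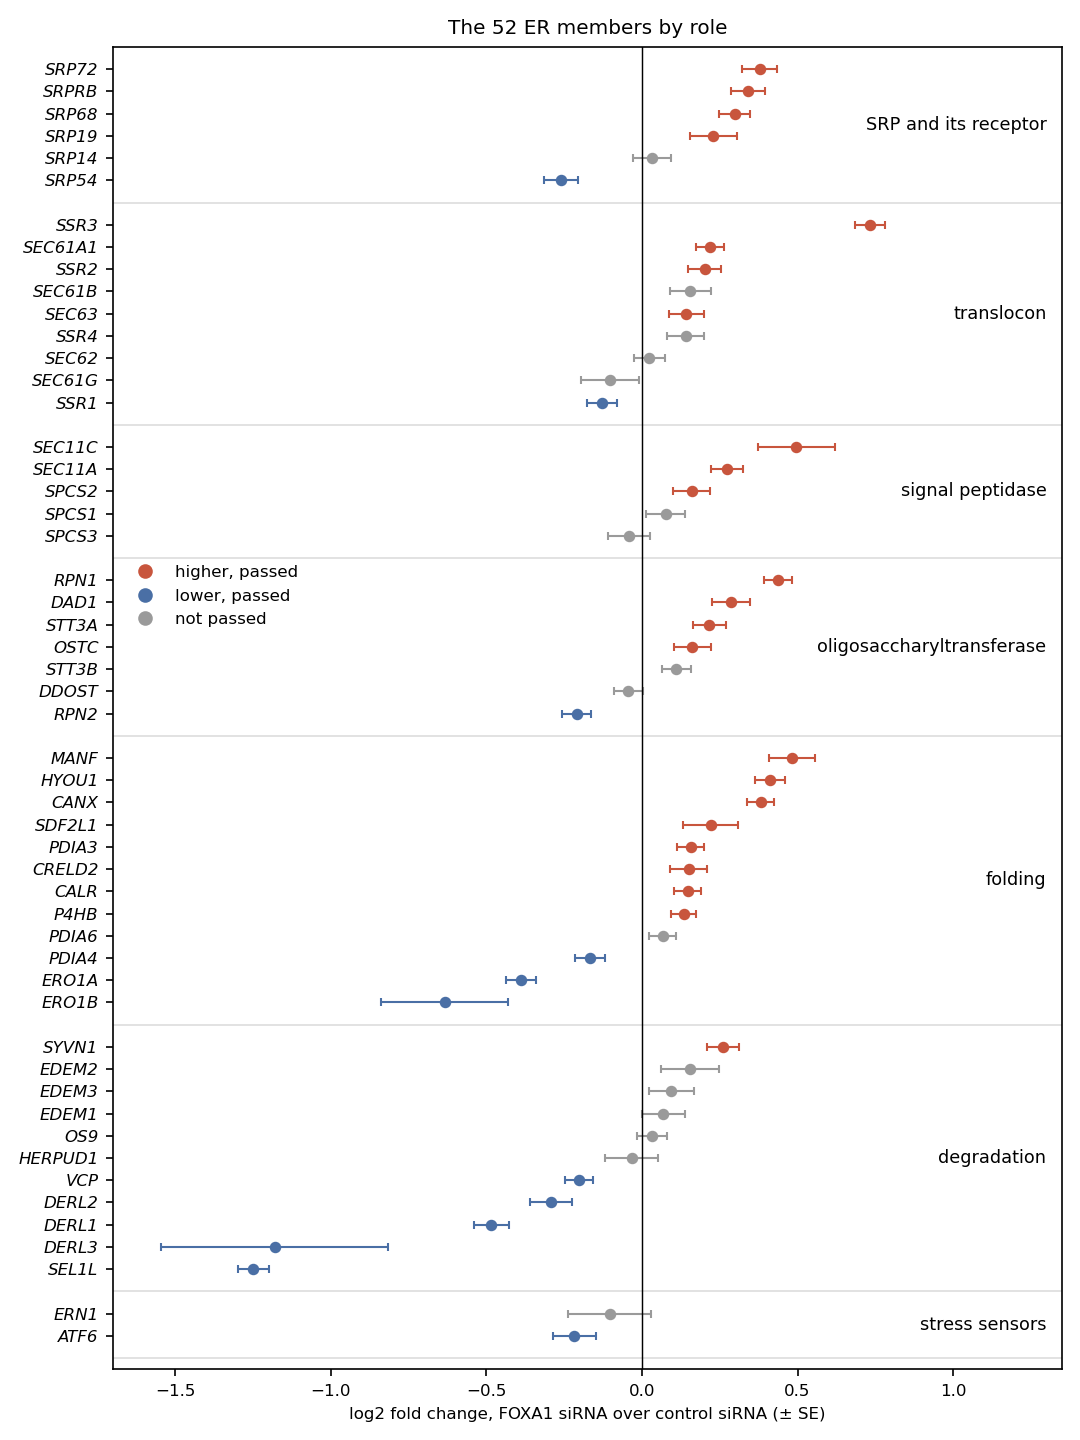
Log2 fold change of the 52 members, FOXA1 siRNA over control siRNA, with its standard error, grouped by role (red higher, blue lower, grey not past the threshold). Values run from -1.25 for SEL1L to 0.73 for SSR3, and blue points gather in the degradation group.

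In the SRP group, 4 of 6 genes rose, 1 fell and SRP14 did not pass. SRP72 and SRP68 form a dimer within the particle. SRP72 read 1227, 1204 and 1163 normalized counts in the control and 1539, 1491 and 1643 in the FOXA1 siRNA libraries, a log2 fold change of 0.38 ± 0.06 (limma, adjusted p = 3.29e-06). SRP68 read 2095, 2071 and 2100 against 2496, 2584 and 2625 (0.30 ± 0.05, limma, adjusted p = 1.19e-05). SRPRB, the membrane-anchored subunit of the receptor, read 1565, 1482 and 1460 against 1834, 1871 and 2004 (0.34 ± 0.06, limma, adjusted p = 8.53e-06). In these 3 genes every FOXA1 siRNA library was above every control library. SRP54, the GTPase that binds the signal sequence, moved the other way, from 1762, 1734 and 1658 to 1417, 1424 and 1460 (-0.26 ± 0.05, limma, adjusted p = 2.07e-04), again without overlap. The ratio of SRP72 to SRP54 within a library went from 0.697 ± 0.0039 to 1.09 ± 0.0391 (SD, n = 3), a pair chosen after its values were seen. A common factor for all genes of a library cannot alter such a ratio, though quantile normalization can. SRP19, which helps SRP54 assemble on the SRP RNA, rose by 0.23 ± 0.08 (limma, adjusted p = 0.0134, 0.00365 to 0.145 over its alternatives). The SRP19 call was lost in 5 of the 19 alternatives, among them those without control replicate 3 or without FOXA1 siRNA replicate 2. SRP19 shares 439 exonic bases with the protein-coding AC008575.1 on the same strand, which is counted at 88.6% of its level and had a log2 fold change of 0.25. It also shares exons with the pseudogene ZRSR2P1 on the same strand and with REEP5 on the opposite one, and the strand setting of the counting is not known here.

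In the translocon group, 4 of 9 genes rose, 1 fell and 4 did not pass. SSR3 had the largest rise of all members, from 2278, 2242 and 2253 normalized counts to 3697, 3697 and 3877, a log2 fold change of 0.73 ± 0.05 (limma, adjusted p = 5.51e-13). All FOXA1 siRNA libraries lay above all control libraries, and no overlapping gene is annotated in GENCODE 29 at its exons (GRCh38 chr3:156540140-156555184, minus strand). Its partners in the translocon-associated protein complex, which assists the entry of some substrates, had smaller fold changes. SSR2 went from 1741, 1727 and 1693 to 1887, 1997 and 2054 (0.20 ± 0.05, limma, adjusted p = 0.00233). SSR4 went from 1154 ± 73.2 to 1270 ± 28.7 (SD, n = 3; limma, adjusted p = 0.0535). SSR1 fell from 2626, 2674 and 2573 to 2420, 2380 and 2401 (-0.13 ± 0.05, limma, adjusted p = 0.0287, 3.33e-04 to 0.114 over its alternatives). The SSR1 call was lost in 9 of the 19 alternatives, among them on leaving out any control library or FOXA1 siRNA replicate 1 or 2. The SSR3 to SSR1 ratio within a library was 0.860 ± 0.0197 in control and 1.57 ± 0.0450 in FOXA1 siRNA libraries, a pair likewise picked after the values were seen.

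Of the channel itself, SEC61A1, the pore-forming subunit, rose from 4680, 4859 and 4687 to 5555, 5532 and 5463 normalized counts (0.22 ± 0.05, limma, adjusted p = 1.91e-04). The groups did not overlap, though the call was lost with quantile normalization (limma, adjusted p = 0.367, from 1.76e-05 over its alternatives). SEC61A1 shares 344 exonic bases with RUVBL1 on the opposite strand, which is counted at 38.6% of its level and rose by 0.23. The small subunits had log2 fold changes of 0.15 for SEC61B and -0.10 for SEC61G, neither past the threshold. SEC63, which recruits the chaperone BiP to the channel, rose by 0.14 ± 0.06 (limma, adjusted p = 0.0350, 0.0180 to 0.518 over its alternatives). That call was lost in 14 of the 19 alternatives, and the authors' deposited test did not make it. The losses included the analyses without control replicate 1 or 3 or FOXA1 siRNA replicate 2 or 3. Its partner SEC62 stayed at 2870 ± 76.5 against 2917 ± 115 (SD, n = 3).

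In the signal peptidase group, 3 of 5 genes rose and none of these 5 fell. The complex has alternative catalytic subunits, SEC11A and SEC11C. SEC11A rose from 2247, 2147 and 2095 to 2535, 2557 and 2749 normalized counts (0.27 ± 0.05, limma, adjusted p = 7.12e-05). SEC11C, expressed at a lower level, rose from 189, 166 and 187 to 206, 262 and 308 (0.50 ± 0.12, limma, adjusted p = 0.00157). Neither gene's groups overlapped, and FOXA1 siRNA replicate 1 was the lowest of its group for SEC11C. The accessory subunit SPCS2 read 2979, 2657 and 2462 against 2909, 2952 and 3170, which overlap (0.16 ± 0.06, limma, adjusted p = 0.0271, 0.00200 to 0.431 over its alternatives). Its call was lost in 9 of the 19 alternatives, among them those without control replicate 2 or 3 or FOXA1 siRNA replicate 3. The authors' deposited test did not call SPCS2, and its pseudogene SPCS2P4 was counted at 12.8% of its level. SPCS1 (0.076) and SPCS3 (-0.041) did not pass.

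In the oligosaccharyltransferase, the enzyme that transfers the glycan, 4 of 7 genes rose, 1 fell and 2 did not pass. The ribophorins are shared subunits of both forms of the enzyme and moved in opposite directions. RPN1 rose from 3754, 3744 and 3729 normalized counts to 5210, 4999 and 4992 (0.44 ± 0.05, limma, adjusted p = 6.24e-09). RPN2 fell from 3870, 3891 and 3930 to 3340, 3341 and 3425 (-0.21 ± 0.05, limma, adjusted p = 4.02e-04). Neither gene's groups overlapped. Within a library, RPN1 stood at 0.960 ± 0.0107 of RPN2 in control and at 1.504 ± 0.0516 in FOXA1 siRNA libraries (SD, n = 3; pair chosen after the values were seen). RPN1 lies at GRCh38 chr3:128619970-128681075 (minus strand) and RPN2 at chr20:37178410-37241623 (plus strand), with RPN2 sharing 147 exonic bases with MROH8 on the opposite strand.

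The catalytic subunits define the forms of the enzyme, STT3A acting on chains as they enter and STT3B on sites that were missed. STT3A rose from 3015, 2968 and 2950 to 3359, 3278 and 3760 normalized counts (0.22 ± 0.05, limma, adjusted p = 0.00103). STT3B read 3141, 3200 and 3286 against 3402, 3470 and 3524 (0.11 ± 0.05, limma, adjusted p = 0.0515). Neither pair of groups overlapped, and the STT3A call was lost with equal library totals and with quantile normalization (limma, adjusted p = 1.73e-04 to 0.0816 over its alternatives). Their ratio was 0.928 ± 0.0310 and 1.00 ± 0.0621 (SD, n = 3). STT3A shares 80 exonic bases with CHEK1 on the same strand, which is counted at 32.7% of its level and rose by 0.50. DAD1, a small subunit needed for the stability of the complex, rose from 1065, 999 and 1029 to 1187, 1336 and 1256 (0.29 ± 0.06, limma, adjusted p = 2.74e-04). OSTC, which joins the STT3A form to the translocon, rose by 0.16 ± 0.06 (limma, adjusted p = 0.0256, 0.0226 to 0.376 over its alternatives). The OSTC call was lost in 10 of the 19 alternatives, and the authors' deposited test did not make it. The losses included the analyses without control replicate 2 or 3 or FOXA1 siRNA replicate 2 or 3. DDOST, another shared subunit, read 4481 ± 63.5 against 4348 ± 120 (SD, n = 3).

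**Figure D4:**
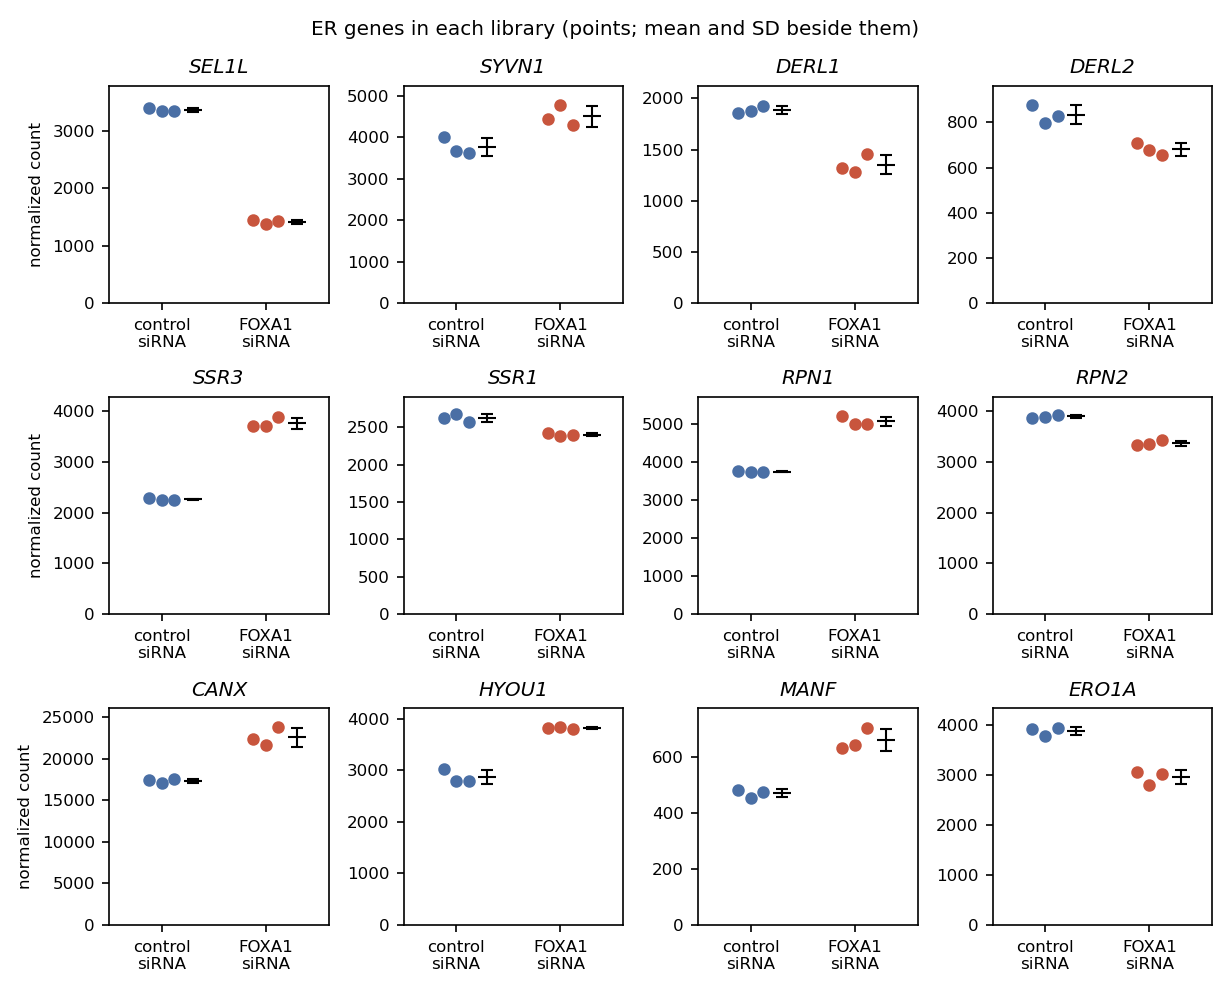
Normalized counts of 12 members in each of the 3 control and 3 FOXA1 siRNA libraries (points), with the mean and SD beside them and axes that start at 0. SEL1L and SYVN1, SSR3 and SSR1, and RPN1 and RPN2 move in opposite directions. All 12 are members past the threshold, and in none do the groups overlap. The groups did not overlap in 39 of all 52 members and in 57.6% of all tested genes.

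In the folding group, 8 of 12 genes rose, 3 fell and PDIA6 did not pass. The lectin chaperones hold glycoproteins in the organelle while they fold, and they are among the most abundant transcripts here. Per kilobase of the longest protein-coding transcript, the control means of normalized counts were 6918 for CALR, 4859 for P4HB and 4069 for CANX, against 8.74 for DERL3 and 13.7 for ERO1B at the low end. Calnexin (CANX), the membrane-bound lectin, rose from 17392, 17095 and 17516 to 22358, 21600 and 23839 normalized counts (0.38 ± 0.04, limma, adjusted p = 2.49e-08). Calreticulin (CALR), its soluble relative, rose from 13364, 13076 and 13055 to 14445, 15128 and 14169 (0.15 ± 0.04, limma, adjusted p = 0.00498). Neither gene's groups overlapped. The CANX to CALR ratio was 1.32 ± 0.0218 in control and 1.55 ± 0.127 in FOXA1 siRNA libraries. Under quantile normalization the log2 fold change of CANX was 0.14 and still past the threshold, and the sign of CALR, PDIA3 and P4HB turned, to -0.0175, -0.0378 and -0.0278, so the direction of these 3 rests on the scaling.

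MANF, a stress-induced secreted factor that binds BiP, had the largest rise of this group, from 483, 455 and 476 to 631, 642 and 705 normalized counts (0.48 ± 0.07, limma, adjusted p = 3.41e-06). HYOU1, the large chaperone that acts as nucleotide exchange factor for BiP, rose from 3027, 2789 and 2792 to 3811, 3838 and 3791 (0.41 ± 0.05, limma, adjusted p = 5.75e-08). HYOU1 was nearly level among the FOXA1 siRNA libraries, all above the control libraries, as was MANF. Other stress-induced members had smaller fold changes. CRELD2 rose by 0.15 ± 0.06 (limma, adjusted p = 0.0372, 0.0284 to 0.476 over its alternatives) and SDF2L1 by 0.22 ± 0.09 (limma, adjusted p = 0.0361, 0.0242 to 0.243). The CRELD2 call was lost in 14 and the SDF2L1 call in 11 of the 19 alternatives, and the authors' deposited test made neither. Among the losses, CRELD2 was not called without control replicate 1 or 3, nor SDF2L1 without control replicate 1 or 2. Both calls were also lost without FOXA1 siRNA replicate 2 or 3. CRELD2 and ALG12 share 168 exonic bases on opposite strands, and HYOU1 shares 666 with the antisense gene AP003392.3, which had a log2 fold change of 0.39.

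The disulfide machinery was split. The isomerases PDIA3 and P4HB rose by 0.16 and 0.13 on the log2 scale, and PDIA6, at 0.067, did not pass. PDIA4, another isomerase, fell from 4896, 4602 and 5115 to 4212, 4463 and 4337 normalized counts (-0.17 ± 0.05, limma, adjusted p = 0.00569, up to 0.0801 over its alternatives and 0.0677 without control replicate 3). ERO1A, the oxidase that recharges the isomerases, fell from 3919, 3783 and 3930 to 3060, 2803 and 3027 (-0.39 ± 0.05, limma, adjusted p = 1.75e-07). Its paralog ERO1B, expressed far lower, fell from 64.7, 58.5 and 64.9 to 35.4, 37.2 and 48.6 (-0.63 ± 0.20, limma, adjusted p = 0.0109). None of these 3 had overlapping groups. The ERO1B call was lost with quantile normalization (limma, adjusted p = 0.0669, from 0.00397 over its alternatives) and at a threshold of 0.01. The authors' deposited test did not call ERO1B either (adjusted p = 0.0657). ERO1A shares 581 exonic bases with the antisense gene AL133453.1, at a mean of 279.5 and a log2 fold change of -0.97. P4HB shares 529 with the antisense gene AC145207.3, which is counted at 36.5% of its level and rose by 0.13. Within a library, P4HB stood at 3.26 ± 0.0556 times ERO1A in control and 4.69 ± 0.215 times in FOXA1 siRNA libraries.

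In the degradation group, 1 of 11 genes rose, 5 fell and 5 did not pass. SEL1L, the adaptor that stabilises the ubiquitin ligase and brings substrates to it, had the largest fall of all 52 on the log2(normalized count + 1) scale. It read 3398, 3350 and 3339 normalized counts in control and 1439, 1374 and 1430 in FOXA1 siRNA libraries, 42.1% of the control mean, beside 41.8% for the scarce DERL3. The groups were far apart and tight, at 3362 ± 31.4 and 1414 ± 35.0 (SD, n = 3), with a log2 fold change of -1.25 ± 0.05 (limma, adjusted p = 2.03e-17). The change lay between -1.35 and -1.23 in the 19 alternatives. SEL1L lies at GRCh38 chr14:81471549-81533861 (minus strand), with no other annotated gene over its exons.

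SYVN1, the ubiquitin ligase that SEL1L partners, was the single gene of the group that rose, from 4011, 3664 and 3623 to 4452, 4790 and 4286 normalized counts (0.26 ± 0.05, limma, adjusted p = 1.33e-04). The groups did not overlap, the change was 0.13 with quantile normalization, and its exons (GRCh38 chr11:65121780-65134533, minus strand) share 398 bases with FAU on the same strand, a gene at a mean of 7019 that rose by 0.33. The SYVN1 to SEL1L ratio went from 1.12 ± 0.0529 in control to 3.19 ± 0.259 in FOXA1 siRNA libraries (SD, n = 3), the widest shift of the 8 pairs formed, all of them chosen after the values were seen.

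The derlins, membrane proteins that help form the path back to the cytosol, all fell. DERL1 went from 1855, 1876 and 1930 to 1323, 1276 and 1455 normalized counts (-0.48 ± 0.06, limma, adjusted p = 5.58e-08). DERL2 went from 835 ± 41.3 to 681 ± 28.7 (SD, n = 3; -0.29 ± 0.07, limma, adjusted p = 6.44e-04). DERL3, near the low end of expression, went from 24.7, 18.2 and 38.7 to 11.8, 15.2 and 7.12 (-1.18 ± 0.36, limma, adjusted p = 0.00803, 0.00453 to 0.0820 over its alternatives). In all 3 the groups were apart, but the DERL3 change was -0.90 and no longer called without control replicate 3, and the gene shares 2923 exonic bases with the much more abundant SMARCB1 on the opposite strand. DERL1 shares 396 with TBC1D31, which fell by 0.19, and 115 with the antisense gene AC104316.1, which is counted at 17.4% of its level and fell by 0.53. DERL2 shares 301 with MIS12, also opposite. VCP, the ATPase that pulls substrates out, fell from 7411 ± 187 to 6439 ± 90.8 (SD, n = 3; -0.20 ± 0.04, limma, adjusted p = 3.56e-04), without overlap, and by 0.40 with quantile normalization. The mannosidase-like EDEM1, EDEM2 and EDEM3, which mark glycoproteins for disposal, had log2 fold changes of 0.069, 0.15 and 0.095, and the lectin OS9 had 0.033. HERPUD1, a stress-induced organiser of the complex, read 332 ± 14.1 and 324 ± 5.03 (SD, n = 3). None of these 5 passed.

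Of the sensors, ATF6, which is cut in the Golgi to release a transcription factor, fell from 839, 778 and 825 to 652, 744 and 706 normalized counts (-0.22 ± 0.07, limma, adjusted p = 0.00985, 3.55e-04 to 0.0731 over its alternatives). The groups did not overlap, and the call was lost without FOXA1 siRNA replicate 1. ERN1 read 143, 145 and 153 against 147, 154 and 113, which overlap (-0.10 ± 0.13, limma, adjusted p = 0.544).

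Genes of the same pathways outside the 52 also changed in both directions, and their counts are to be read against the 26.8% of all tested genes that rose and the 25% that fell. Of 27 other targeting and translocation genes, 11 rose (40.7%) and 7 fell (25.9%; median 0.060), and of 31 other glycan assembly and oligosaccharyltransferase genes, 15 rose (48.4%) and 4 fell (12.9%; median 0.18). TMEM147 and NCLN, which sit together in a translocon-associated complex, rose by 0.62 and 0.49 on the log2 scale. NOMO1, of the same complex, fell by 0.13 (limma, adjusted p = 0.0321). TRAM2 and GET1 fell by 0.44 and 0.34. GNPNAT1 and UAP1, enzymes that make UDP-GlcNAc, rose by 0.63 and 0.53. Of the same route, PGM3 rose by 0.35 and GFPT1, at -0.0039, did not pass. ALG11 and DPM3 of glycan assembly fell by 0.33 and 0.32. Of 39 tested other folding genes, 12 rose (30.8%) and 8 fell (20.5%; median 0.021), led by QSOX1, a sulfhydryl oxidase, at 0.87 and PDIA5 at 0.70, with TMX4 at -1.01 and CNPY3 at -0.53. Of 32 other degradation genes, 6 rose (18.8%) and 9 fell (28.1%; median 0.023). RNF139, an ER ubiquitin ligase, went from 1199 ± 79.4 to 471 ± 17.5 normalized counts (SD, n = 3; log2 fold change -1.35), and RAD23B, which carries ubiquitylated proteins to the proteasome, from 4991 ± 165 to 2238 ± 49.9 (-1.16). YOD1, a deubiquitinase that works with VCP, rose by 0.49.

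**Figure D5:**
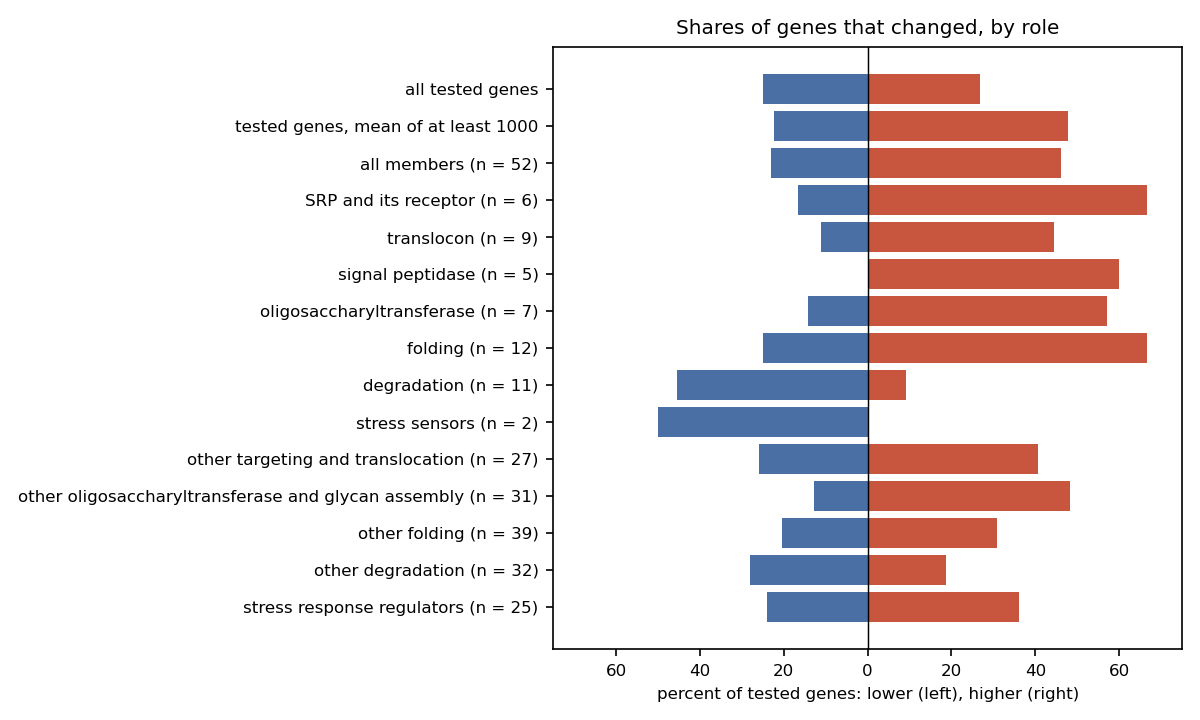
Percent of tested genes that fell (left) and rose (right) past the threshold in each role group, in the other lists of the same pathways and in all tested genes. Among the 11 degradation members the bar is longer on the lower side (5 fell, 1 rose), beside 25% lower and 26.8% higher of all tested genes.

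The central chaperones and regulators of the unfolded protein response did not move together. HSPA5 (BiP), the main ER chaperone of the Hsp70 class, read 12623, 12316 and 12709 normalized counts in control and 11738, 12226 and 12455 in FOXA1 siRNA libraries, which overlap (-0.048 ± 0.04, limma, adjusted p = 0.360). HSP90B1 (GRP94) fell by 0.19 on the log2 scale (limma, adjusted p = 5.10e-04). Both have an ER stress element in the promoter window, as do XBP1 and ALG12 among the other lists. XBP1 rose from 1268 ± 73.7 to 1473 ± 56.9 (SD, n = 3; 0.22, limma, adjusted p = 0.00315), and gene counts do not show its splicing by IRE1. EIF2AK3 rose by 0.40 (limma, adjusted p = 1.00e-05) and ATF4, the factor translated downstream of it, from 2896 ± 83.6 to 4400 ± 277 (0.60, limma, adjusted p = 1.15e-10). DDIT3 (CHOP), a target of ATF4, was at 0.26 and did not pass (limma, adjusted p = 0.0698). Of 25 tested regulators, 9 rose (36%) and 6 fell (24%; median 0.043), against 26.8% and 25% of all tested genes. TRAF2, an IRE1 partner, rose by 0.52, and MBTPS2, a protease that releases ATF6, and NFYC, a subunit of the CCAAT-binding factor, fell by 0.61 and 0.41.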

How the data were processed

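RNA sequencing libraries of total RNA were made with the NEBNext Ultra kit, per the labels' protocols. The submitters' processing notes name HISAT2, DESeq2 and the builds GRCh38 and GRCm38; the counter, strand setting and annotation are not given in the sources used here. Per the file headers, the values are a normalized signal for each gene and library: the authors' read count over the library's size factor. It also holds the authors' log2 fold change, test score and p-value, and the authors' deposited table calls 19 members higher and 11 lower, with 46 of 52 calls as here. Of its lines 3 were malformed and left out. All values (100%) were whole multiples of 1 read within 0.01 read, with size factors of 0.843 to 1.32. No pair of replicates agreed within counting error, at a chi-square per gene of 2.52 to 5.13.

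Groups came from the sample titles. The test was limma 3.58.1 (R 4.3.3; trend and robust) on log2(normalized count + 1) for the 18460 genes with a mean of at least 10, with Benjamini-Hochberg adjustment and a threshold of 0.05. This scale understates changes of low genes. It was tested on simulated data. Positions and overlaps came from GENCODE 29 (GRCh38) and promoters from RefSeq (GRCh38.p14). The members and lists were chosen with earlier results of these data known. Values in every library are given for up to 3 rises and 3 falls past the threshold per role group and for SEC61A1, STT3A, STT3B, CANX, CALR, HYOU1, SEL1L, SYVN1, ATF6 and ERN1. NOMO1, PGM3 and GFPT1 are given beside genes of the same complex or route. From each other list up to 2 rises and 2 falls with a mean of at least 50 are named, and HSPA5, HSP90B1, XBP1, EIF2AK3, ATF4 and DDIT3 always. A gene that this rule names is not reported here. The 19 alternatives covered pseudocounts, filters, scalings, edgeR 4.0.16 and DESeq2 1.42.0 on recovered reads, the threshold, a replicate block and each library left out.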

Additional observations from a re-analysis of the deposited data

How the results depend on the processing

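Of the 36 members called, 19 kept their call and 33 their direction in all 19 alternatives, and 5 of the 16 not called passed in at least 1. Members called higher numbered 24 and fell to 13 with equal library totals, 15 with quantile normalization and 15 when limma's trend and robust options were off; with each library left out in turn they numbered 19 to 25, and those lower 9 to 12. Quantile normalization reversed CALR (-0.0175), PDIA3 (-0.0378), P4HB (-0.0278) and PDIA6 (-0.13, limma adjusted p = 0.00839, up to 0.549 over its alternatives), and, outside the members, the GANAB log2 fold change (-0.0153) and the PPIB log2 fold change (-0.0293). The members' median exceeded that of all genes by 0.13 as reported and with equal totals, and by -0.0063 with quantile normalization; the cause was not tested. With a replicate block 22 members were higher and 11 lower. Same-numbered libraries did not deviate together over the genes with a mean of at least 10 (correlations -0.0102, 0.0109 and -0.0109). These correlations weigh low and high genes alike, so a shared culture or batch could go unseen, and the labels name none. Recovered reads gave 20 higher and 12 lower with edgeR and 19 and 12 with DESeq2. The 3 libraries a group limit the precision, most for DERL3 and ERO1B, which have the fewest reads.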
